A study of Homo sapiens with 12 samples.

Results

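RNA of untreated IL1R1-KO MCF10A cells was compared with RNA of untreated WT MCF10A cells, 2 libraries of each, chosen by their labels from a series of 12 libraries. MCF10A cells are epithelial cells of the human breast that were immortalized without becoming tumorigenic. The IL1R1-KO cells carried a lentiviral CRISPR/Cas9 construct with a guide (the methods list 2) against IL1R1, the signalling chain of the interleukin-1 receptor, and were kept as a puromycin-selected pool rather than grown from a single clone. The WT libraries are titled wild type, and their sample names also hold the tag v2, which the labels do not explain. The remaining 8 libraries were 2 each of untreated IL1RAP-KO cells, which were made the same way against the accessory chain of the receptor, and of the 3 genotypes after a single dose of 20 Gy. All groups grew in medium with epidermal growth factor, cholera toxin, insulin, hydrocortisone and horse serum. The study asked how losing the receptor changed gene expression with and without irradiation, and the untreated pair gives the state of the cells before any irradiation.

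Interleukin-1 alpha and beta bind IL1R1, which then recruits IL1RAP. The paired receptor passes the signal through MYD88, the IRAK kinases, TRAF6 and the TAK1 kinase to the IKK complex, which releases NF-kB dimers from their IkB inhibitors. NF-kB raises transcription of chemokines, acute phase proteins and its own inhibitors, so that the signal ends itself, and epithelial cells that make interleukin-1 alpha can also respond to it.

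The 4 libraries were of like composition in most respects, and their read depth is unknown because the deposited values are TPM (transcript abundance scaled to a fixed total), which keep none. Mitochondrially encoded RNA took 20.0% to 21.1% of TPM in the IL1R1-KO libraries and 18.3% to 20.8% in the WT libraries. The 10 basal markers summed to 4359 to 5190 TPM in IL1R1-KO libraries, against 4351 to 4629 TPM in WT libraries. KRT5 and KRT17 make up most of that sum, so it says little of the others. KRT14, another basal keratin, was at 45.27 and 61 TPM in IL1R1-KO libraries, against 90.03 and 88.42 TPM in WT libraries. The defining markers of leukocytes PTPRC and CD3E and of fibroblasts PDGFRA and COL1A2 were listed at 0 in all 4. Of the 6 leukocyte markers the highest was CD14, at 5.91 and 21.65 TPM in IL1R1-KO replicates 1 and 2, against 21.26 and 20.45 TPM in WT libraries, and of the 7 fibroblast markers DCN, at 17.82 and 17.76 TPM in IL1R1-KO libraries, against 20.7 and 23.27 TPM in WT libraries. The IL1R1-KO replicates differed from each other: their Pearson correlation across genes was 0.985, below the 0.986 and 0.988 with which each matched its best library outside the group (IL1RAP-KO replicate 2 for both), whereas the WT replicates correlated at 0.989. IL1R1-KO replicate 2 held 1209 TPM of RN7SL1, the RNA of the signal recognition particle, against 178 TPM in replicate 1, with 147 and 127 TPM in WT replicates 1 and 2. Replicate 1 held more of the oxidative stress genes described at the end, so results are also given with each library left out. Nothing states that replicates came from separately edited pools, and p-values then measure only the spread between these libraries.

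The targeted gene was not lower at the mRNA level. IL1R1 was at 11.03 and 7.82 scaled TPM in the libraries labelled IL1R1-KO, against 10.7 and 9.46 in WT libraries (TPM divided by a trimmed-mean scaling factor, used for all levels below). The log2 fold change was -0.10 with a standard error of 0.16 and an adjusted p of 1 (limma, Benjamini-Hochberg over all genes tested). IL1R1-KO replicate 1 lay above both WT libraries and replicate 2 below both. Small insertions and deletions made by Cas9 need not lower the mRNA, and a value per gene does not show them, so the level does not check the label. IL1RAP, the partner chain, was at 17.8 and 19.4 in IL1R1-KO libraries, against 18.04 and 20.7 in WT libraries.

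Untreated libraries labelled IL1R1-KO differed from WT in few genes, nearly all of them lower, among them chemokines, acute phase proteins, SOD2 and inhibitors of NF-kB. Of 15303 genes tested, 18 were lower (0.118%) and 3 were higher (0.0196%) when an adjusted p under 0.05 was required together with more than a 2-fold difference, with fold changes taken on the scale of log2(scaled TPM + 1). Of the 18 lower genes 17 code for proteins, and the 3 higher ones are pseudogenes. The 17 had a median log2 fold change of -1.71, beside 0.0067 over all genes tested. In bulk RNA, fewer cells that express a gene and less RNA per cell cannot be told apart. The adjusted p alone gave 25 lower (0.163%) and 3 higher genes, an unadjusted p under 0.05 gave 435 (2.84%) and 372 (2.43%), and libraries that did not overlap between groups gave 2658 lower (17.4%) and 2979 higher (19.5%). The number of lower genes depended on the libraries: it was 13 without IL1R1-KO replicate 1 (13 of the 18), 39 without IL1R1-KO replicate 2 (17 of the 18), 8 without WT replicate 1 (7 of the 18) and 12 without WT replicate 2 (11 of the 18). The number of higher genes was 3, 18, 2 and 2 in the same fits, of which 0, 1, 2 and 2 were among the 3 pseudogenes; without IL1R1-KO replicate 1 the 3 were INPP5F, RN7SL1 and RN7SL2. CXCL1, SOD2, CXCL8, SLC39A8, CFB, CSF3 and RELB were lower in each of these 4 fits. With 2 libraries against 2, an exact permutation test of a single gene cannot go below a two-sided p of 0.333, so the spread of all 6 groups was shared.

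**Figure D1:**
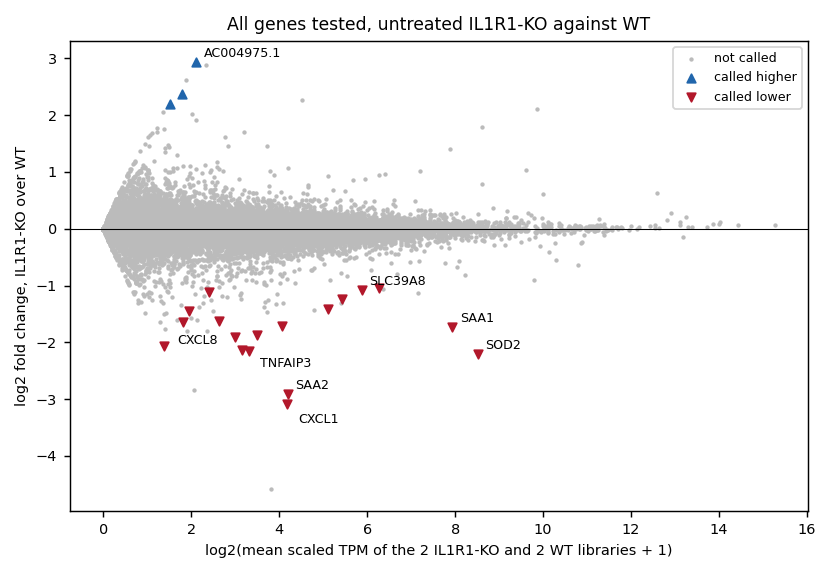
Mean level of each of the 15303 genes tested against its log2 fold change, IL1R1-KO over WT, in untreated cells. Triangles mark the 18 genes called lower, which reach CXCL1 at -3.09, and the 3 pseudogenes called higher; SOD2 and SAA1 are the most abundant genes called.

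**Figure D2:**
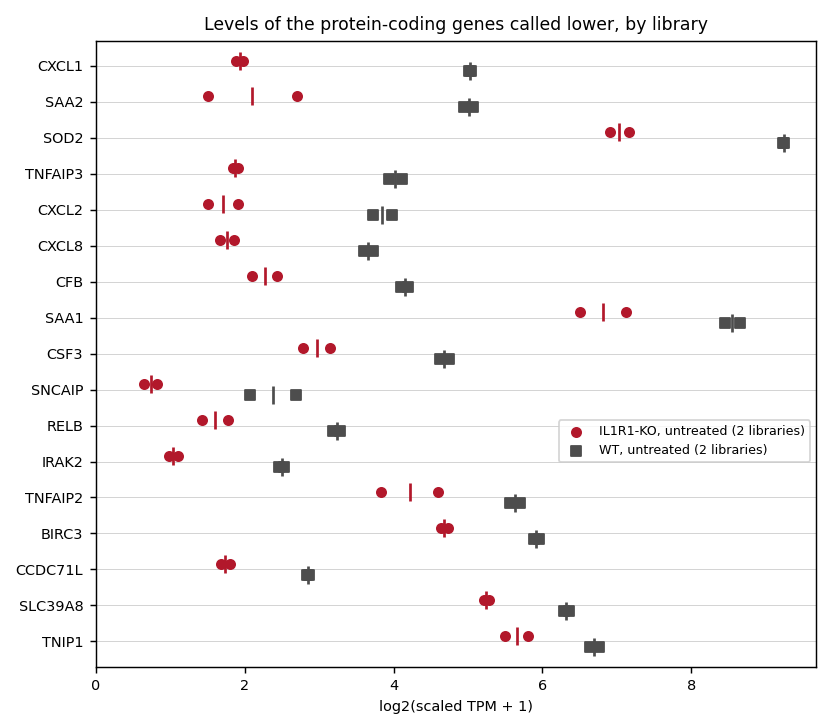
Level of the 17 protein-coding genes called lower in each library, as log2(scaled TPM + 1), with the mean of each group as a vertical tick; circles are the 2 IL1R1-KO libraries and squares the 2 WT libraries. No gene's groups overlap, which the choice of the genes in these same libraries favours. Over all genes 17.4% had both IL1R1-KO libraries below both WT libraries. SAA2 and TNFAIP2 show the widest gap between the IL1R1-KO replicates.

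The promoters of the genes called lower are shown because NF-kB, the factor at the end of the receptor's pathway, binds DNA at short motifs. RefSeq promoter windows (GRCh38.p14, 250 bases before to 50 after the start) were matched by symbol for 13 of the 18 genes. CSF3, RELB, SAA1, SAA2 and UBL5P4 had no matched window. A gene was counted if any of its windows held a motif, for the matched genes and for all genes alike. SLC39A8 and TNIP1 also have a window without either NF-kB motif. Windows of 8 of the 13 held at least 1 of the 2 NF-kB motifs searched on both strands, GGANNTTCC and the 10-letter consensus of 3 G, a purine, 2 of any base, 2 pyrimidines and 2 C, and the 2 motifs overlap one another in CXCL1, CXCL2, TNIP1 and TNFAIP3. The share was 61.5% of the matched genes, beside 15.96% of all 27305 genes with a window. GGANNTTCC was in 6 of 13 (46.2%, beside 5.57%) and the consensus in 7 of 13 (53.8%, beside 13.3%). The AP-1 motif TGANTCA was in 1 of 13, CXCL8 (7.69%, beside 9.37%), and TATAAA in 3 of 13 (23.1%, beside 13.99%). Windows of SOD2, IRAK2, SNCAIP, TNFAIP2 and CCDC71L did not hold either NF-kB motif in these letters. A match is a description of the sequence, not a site of binding. The 250 bases before the start of 6 genes are given 5′ to 3′ on the gene's strand, with the NF-kB motifs in capitals; they are the called genes of smallest adjusted p with a motif, and the first window that holds one is shown where a gene has several starts:
CXCL1 promoter (chr4:73869143-73869392, plus strand): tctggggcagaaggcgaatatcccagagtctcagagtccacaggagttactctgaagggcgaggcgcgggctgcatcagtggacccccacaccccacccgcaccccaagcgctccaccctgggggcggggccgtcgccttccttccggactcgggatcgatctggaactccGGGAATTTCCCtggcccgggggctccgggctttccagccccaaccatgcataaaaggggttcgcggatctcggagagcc
CXCL8 promoter (chr4:73740319-73740568, plus strand): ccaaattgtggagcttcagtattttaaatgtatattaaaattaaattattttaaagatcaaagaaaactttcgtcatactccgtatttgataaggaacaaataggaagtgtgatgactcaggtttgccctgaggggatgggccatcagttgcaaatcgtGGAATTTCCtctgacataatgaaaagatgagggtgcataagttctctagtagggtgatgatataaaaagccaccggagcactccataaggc
CFB promoter (chr6:31945845-31946094, plus strand): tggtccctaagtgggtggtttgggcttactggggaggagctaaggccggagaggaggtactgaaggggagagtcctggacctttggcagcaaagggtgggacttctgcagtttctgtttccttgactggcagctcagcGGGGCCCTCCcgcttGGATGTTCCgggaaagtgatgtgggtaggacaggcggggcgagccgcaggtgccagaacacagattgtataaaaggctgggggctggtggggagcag
SLC39A8 promoter (chr4:102345254-102345503, minus strand): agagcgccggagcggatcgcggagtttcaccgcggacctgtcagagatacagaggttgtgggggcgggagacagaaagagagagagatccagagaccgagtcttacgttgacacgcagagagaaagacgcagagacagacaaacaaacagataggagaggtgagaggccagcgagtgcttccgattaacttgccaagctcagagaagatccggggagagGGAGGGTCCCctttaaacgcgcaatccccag
TNIP1 promoter (chr5:151081035-151081284, minus strand): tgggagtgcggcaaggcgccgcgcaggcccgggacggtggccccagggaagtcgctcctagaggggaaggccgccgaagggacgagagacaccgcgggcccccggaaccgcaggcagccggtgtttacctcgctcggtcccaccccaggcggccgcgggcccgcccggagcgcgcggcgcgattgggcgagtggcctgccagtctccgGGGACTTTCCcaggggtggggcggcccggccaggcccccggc
BIRC3 promoter (chr11:102317234-102317483, plus strand): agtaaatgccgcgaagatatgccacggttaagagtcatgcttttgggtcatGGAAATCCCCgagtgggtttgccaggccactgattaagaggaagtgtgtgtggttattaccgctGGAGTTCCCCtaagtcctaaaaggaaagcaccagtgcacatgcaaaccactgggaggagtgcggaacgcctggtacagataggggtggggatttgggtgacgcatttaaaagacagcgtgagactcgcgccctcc
CXCL1 carries its motif 79 bases before the start, as an 11-base stretch in which both motifs overlap, and CXCL8 carries a 9-base motif 91 bases before. CXCL2, not shown, holds the same 11 letters as CXCL1, 78 bases before its start. CFB and BIRC3 hold a pair of motifs each, SLC39A8 holds a single one 31 bases before the start, and TNIP1 holds both motifs overlapping in a stretch 42 bases before.

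Chemokines that draw neutrophils, and the granulocyte growth factor CSF3, were lower. CXCL1 (chr4:73869393-73871308, GRCh38), a ligand of CXCR2, was at 2.70 and 2.94 scaled TPM in IL1R1-KO libraries, against 31.9 and 31.2 in WT libraries. Both IL1R1-KO libraries lay far below both WT libraries, with a log2 fold change of -3.09 ± 0.15 (SE) and an adjusted p of 2.64e-05 by limma, or 8.54-fold. CXCL8, which codes for interleukin-8, was at 2.61 and 2.17 in IL1R1-KO libraries, against 11.1 and 12.2 in WT libraries (log2 fold change -1.90 ± 0.11, adjusted p of 7.35e-05 by limma). CXCL2, another CXCR2 ligand, was at 2.76 and 1.83, against 14.7 and 12.2, a log2 fold change of -2.14, and its call was lost without WT replicate 1 (adjusted p of 0.101 by limma) and without WT replicate 2 (0.0524). CSF3 was at 5.90 and 7.88 in IL1R1-KO libraries, against 25.7 and 23.7 in WT libraries, with a log2 fold change of -1.71 and an adjusted p of 3.66e-04 by limma. These 4 genes were the called members of the 20 measured genes listed as chemokines and myeloid growth factors, whose median log2 fold change was -0.61, beside 0.0067 over all genes and 0.118% of them called lower. The median was -0.38 without IL1R1-KO replicate 1, -0.78 without IL1R1-KO replicate 2, -0.28 without WT replicate 1 and -0.60 without WT replicate 2. The most abundant uncalled members were CXCL16, at 18.3 and 14.6 in IL1R1-KO libraries against 17.4 and 14.8 in WT libraries, and CCL20, at 6.44 and 8.72 against 11.95 and 15.4 (adjusted p of 0.638 by limma).

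Of the acute phase and complement genes, SAA1, SAA2 and CFB were lower. SAA1, a serum amyloid A protein that is made in epithelia as well as the liver, was at 90.01 and 138 scaled TPM in IL1R1-KO libraries, against 400 and 348 in WT libraries, a log2 fold change of -1.73 ± 0.17 (SE, adjusted p of 0.00248 by limma). SAA2, its close neighbour, was at 1.84 and 5.48, against 32.6 and 29.9, a log2 fold change of -2.91. The coding sequences of SAA1 and SAA2 are nearly identical, so how reads were divided between them is uncertain. Without WT replicate 1 neither was called, with adjusted p of 0.0540 for SAA1 and 0.0629 for SAA2 by limma. CFB, complement factor B, which starts the alternative pathway, was at 3.28 and 4.41 in IL1R1-KO libraries, against 16.2 and 17.3 in WT libraries (log2 fold change -1.88, adjusted p of 3.66e-04 by limma). Of 20 measured genes of the acute phase and complement list these 3 were called, beside 0.118% of all genes. In this list 12 had both IL1R1-KO libraries below both WT libraries and 2 had them above, beside 17.4% and 19.5% of all genes. The list had a median of -0.32, which was -0.21 without IL1R1-KO replicate 1. The number was 1, CFB, without WT replicate 1. C3, the central complement component, was at 184 and 248 in IL1R1-KO libraries against 371 and 382 in WT libraries, an uncalled difference of -0.81 (adjusted p of 0.116 by limma). C3, CFI and SERPINA3 were called as well, and the list then had 6 called members, when IL1R1-KO replicate 2 was left out.

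Among targets of NF-kB that act inside the cell, SOD2, mitochondrial superoxide dismutase, stood out by its level. It was at 142 and 119 scaled TPM in IL1R1-KO libraries, against 609 and 602 in WT libraries. The groups were separated by 4.64-fold, with a log2 fold change of -2.21 ± 0.12 (SE) and an adjusted p of 4.98e-05 by limma. SOD1, the superoxide dismutase of the cytosol, was at 367 and 325 in IL1R1-KO libraries against 315 and 318 in WT libraries. SOD2 was the only called gene of the 16 measured superoxide and peroxide enzymes, beside 0.118% of all genes called lower. BIRC3, an inhibitor of apoptosis and ubiquitin ligase (chr11:102317484-102339403), was at 25.5 and 23.8 in IL1R1-KO libraries, against 58.1 and 60.9 in WT libraries, a log2 fold change of -1.24, and lost its call without WT replicate 1 (adjusted p of 0.0687 by limma) and without WT replicate 2 (0.0876). TNFAIP2, a gene induced by tumour necrosis factor, was at 13.3 and 23.3, against 51.0 and 46.3, a log2 fold change of -1.41, and lost its call without WT replicate 1 (adjusted p of 0.369 by limma) and without WT replicate 2 (0.231). These 3 were the called members of 36 measured NF-kB target genes, of which 23 had both IL1R1-KO libraries below both WT libraries and 0 had them above, with a median log2 fold change of -0.31. Over all genes 0.118% were called lower, 17.4% had both below and 19.5% had both above. Only SOD2 of this list was called without WT replicate 1 and without WT replicate 2.

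**Figure D3:**
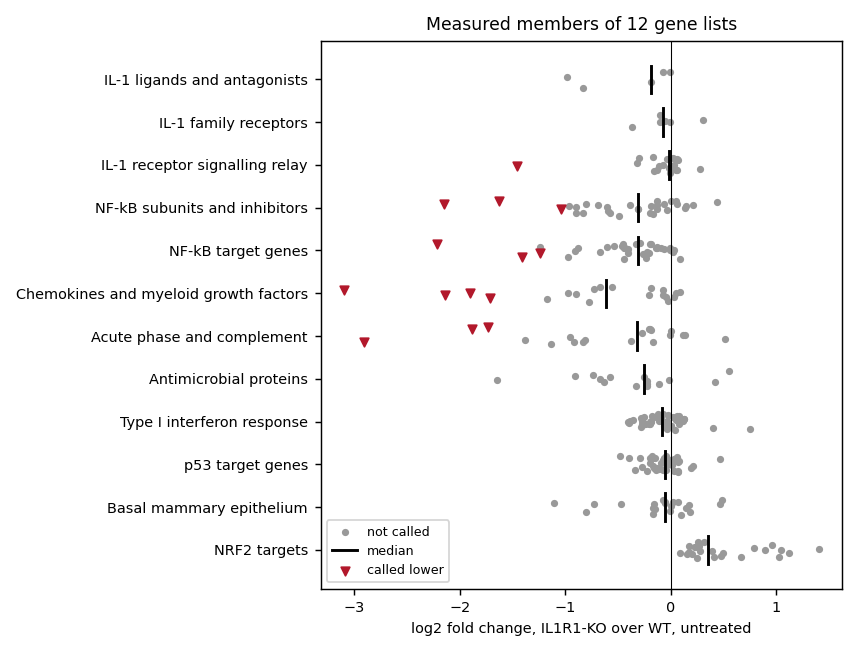
Log2 fold change, IL1R1-KO over WT in untreated cells, of each measured member of 12 gene lists, with the median as a bar and called genes as triangles. Called genes lie left of the medians because a call needs more than a 2-fold difference. The medians run to -0.61 for chemokines (-0.28 without WT replicate 1). The NRF2 list alone lies wholly to the right of 0, with a median of 0.35 that was 0.04 without IL1R1-KO replicate 1.

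Genes that restrain or relay NF-kB were in part lower. TNFAIP3 codes for A20, an enzyme that edits ubiquitin chains and shuts the pathway off, and was at 2.57 and 2.75 scaled TPM in IL1R1-KO libraries, against 14.3 and 16.2 in WT libraries. Its log2 fold change was -2.15 ± 0.29 (SE, adjusted p of 0.0171 by limma), and its call was lost without IL1R1-KO replicate 1 (adjusted p of 0.163), WT replicate 1 (0.140) and WT replicate 2 (0.231). TNIP1, which works with A20, was at 44.2 and 55.0 in IL1R1-KO libraries, against 107 and 98.6 in WT libraries, a log2 fold change of -1.04. TNIP1 missed the 2-fold limit without IL1R1-KO replicate 1 (log2 fold change -0.89) and lost its call without WT replicate 1 (-0.99, adjusted p of 0.0629 by limma). RELB, an NF-kB subunit, was at 2.42 and 1.69, against 8.69 and 8.13, a log2 fold change of -1.63. IRAK2, a kinase of the receptor's relay, was at 0.9751 and 1.14 in IL1R1-KO libraries, against 4.77 and 4.50 in WT libraries, a log2 fold change of -1.45. The call of IRAK2 was lost without IL1R1-KO replicate 1 (adjusted p of 0.0511 by limma), WT replicate 1 (0.0720) and WT replicate 2 (0.0544). Of the 31 measured genes that code for NF-kB subunits, IkB proteins, IKK and feedback regulators, 3 were called lower and 0 higher, 21 had both IL1R1-KO libraries below both WT libraries and 4 had them above, and the median was -0.31. Over all genes the shares were 0.118%, 0.0196%, 17.4% and 19.5% in the same order. The number called was 1 without IL1R1-KO replicate 1, 1 without WT replicate 1 and 2 without WT replicate 2. RELA, the main activating subunit, was at 24.4 and 25.9 in IL1R1-KO libraries against 29.98 and 27.6 in WT libraries.

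Above the receptor, IL1A passed the adjusted p and IL1B did not. Both had the IL1R1-KO libraries below the WT libraries, beside 17.4% of all genes. IL1A, which codes for interleukin-1 alpha, was at 33.2 and 31.5 scaled TPM in IL1R1-KO libraries, against 56.9 and 60.2 in WT libraries, a log2 fold change of -0.84 with an adjusted p of 0.00857 by limma but a fold change under 2. IL1B was at 6.73 and 8.84, against 15.5 and 17.1, a log2 fold change of -0.98 with an adjusted p of 0.0514 by limma, and was called without IL1R1-KO replicate 2 (adjusted p of 0.0273). The adjusted p of IL1A was 0.0626 without IL1R1-KO replicate 1, 0.0818 without WT replicate 1 and 0.156 without WT replicate 2. IL18, a related ligand that uses another receptor, was at 187 and 196 in IL1R1-KO libraries, against 201 and 203 in WT libraries. None of the 6 measured genes of the receptor family was called. Of the 20 measured genes of the relay, IRAK2 was the only one called, and MYD88, the adaptor that starts it, was at 14.6 and 14.5 in IL1R1-KO libraries, against 14.1 and 15.1 in WT libraries (95% interval of the log2 fold change -0.25 to 0.24). IRAK1 had a log2 fold change of -0.02 and TRAF6 of -0.11. The 17 measured MAP kinases downstream of the receptor gave no call and a median of 0.03. Over all genes 0.118% were called lower and 0.0196% higher. At those shares most lists of such sizes would hold no called gene.

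Further genes passed the adjusted p with a smaller change or outside the lists. ICAM1, an adhesion molecule for leukocytes, was at 11.8 and 11.7 scaled TPM in IL1R1-KO libraries, against 21.7 and 23.1 in WT libraries (log2 fold change -0.88, adjusted p of 0.00210 by limma). NFKBIA, which codes for the inhibitor IkB alpha, was at 95.5 and 102, against 150 and 149, a log2 fold change of -0.59. The other 4 with a fold change under 2 besides IL1A were NAMPT at -0.67, LAMB3 at -0.80, VNN1 at -0.83 and ZC3H12C at -0.80. ICAM1 kept an adjusted p under 0.05 with any of the 4 libraries left out, whereas VNN1 reached 0.0796 to 0.466, and NFKBIA, LAMB3 and ZC3H12C passed only without IL1R1-KO replicate 2 and NAMPT only without IL1R1-KO replicate 1. Of the called genes in no list, SLC39A8, a zinc importer (chr4:102251080-102431258), was at 37.8 and 36.1 in IL1R1-KO libraries, against 81.1 and 77.1 in WT libraries, a log2 fold change of -1.08 ± 0.09 (SE, adjusted p of 5.43e-04 by limma). SNCAIP, which codes for synphilin-1, a partner of alpha-synuclein, was at 0.564 and 0.766, against 5.47 and 3.19, and lost its call without IL1R1-KO replicate 1 (adjusted p of 0.215 by limma) and without WT replicate 1 (0.265). CCDC71L was at 2.20 and 2.48, against 6.25 and 6.15, and its call was lost when any of the 4 libraries was left out, with adjusted p of 0.0714 to 0.442 by limma.

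The 4 pseudogenes called were seen in untreated libraries of a single genotype and were at or near 0 in the other. UBL5P4 was listed at 0 in both IL1R1-KO libraries, against 3.01 and 3.40 scaled TPM in WT libraries, and also at 0 in both IL1RAP-KO libraries and in the irradiated libraries of both IL1R1-KO and WT cells. AC004975.1 was at 6.95 and 6.35 in IL1R1-KO libraries and listed at 0 in both WT libraries, and AC245100.3 was at 4.52 and 2.85 in IL1R1-KO libraries and listed at 0 in both. After irradiation AC245100.3 was present in both genotypes, at 5.15 and 7.97 in IL1R1-KO libraries, against 11.03 and 7.71 in WT libraries. AC107918.4 was at 4.99 and 4.61 in IL1R1-KO libraries, against 0.0274 and 0.208 in WT libraries. No fold change is given against a value of 0, and the height of these genes in the plot of all genes depends on the pseudocount. Reads of a pseudogene can come from its parent gene, which was not tested. AC004975.1 and AC107918.4 could not be tested with an IL1R1-KO library left out, nor UBL5P4 with a WT library left out, because too few libraries then reached the minimum, and AC245100.3 lost its call without IL1R1-KO replicate 1 (adjusted p of 0.0593 by limma), WT replicate 1 (0.0710) and WT replicate 2 (0.0670).

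Most of the genes lower in untreated cells were lower after 20 Gy too, in 4 libraries that the untreated comparison does not use, though all groups share the estimate of the spread. After irradiation 298 genes were lower in IL1R1-KO than in WT (1.95% of 15303) and 177 higher (1.16%). Of the 18 genes called lower untreated, 16 were called lower after irradiation, the exceptions being CCDC71L and UBL5P4. None of the 3 higher pseudogenes was called higher after irradiation. The median log2 fold change of the 17 protein-coding genes was -3.21 after irradiation, beside -1.71 untreated. CXCL1 was at 15.9 and 13.95 scaled TPM in irradiated IL1R1-KO libraries, against 1058 and 989 in irradiated WT libraries, and CXCL8 at 9.95 and 8.58, against 276 and 276. SOD2 was at 396 and 323 in irradiated IL1R1-KO libraries, against 6291 and 5583 in irradiated WT libraries. Of the 17, 15 had a larger fall after irradiation, the exceptions being RELB (-1.46 irradiated, -1.63 untreated) and CCDC71L (-0.13 irradiated, -1.11 untreated). The difference between the 2 contrasts passed an adjusted p under 0.05 by limma for 11 of the 17, each with the larger fall after irradiation, where 2.81% of all genes passed in either direction. Among all 21 genes called this number was 15, but that includes the 4 pseudogenes. These were at 0 in a group or reached 1 TPM in a single group, so the filter and the choice of genes fix their difference. Among the genes called in each fit, the number passing depended on which library was left out. The count that also passed after irradiation was 7 of 8 called without WT replicate 1, 11 of 12 without WT replicate 2, 12 of 13 without IL1R1-KO replicate 1 and 23 of 39 without IL1R1-KO replicate 2.

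**Figure D4:**
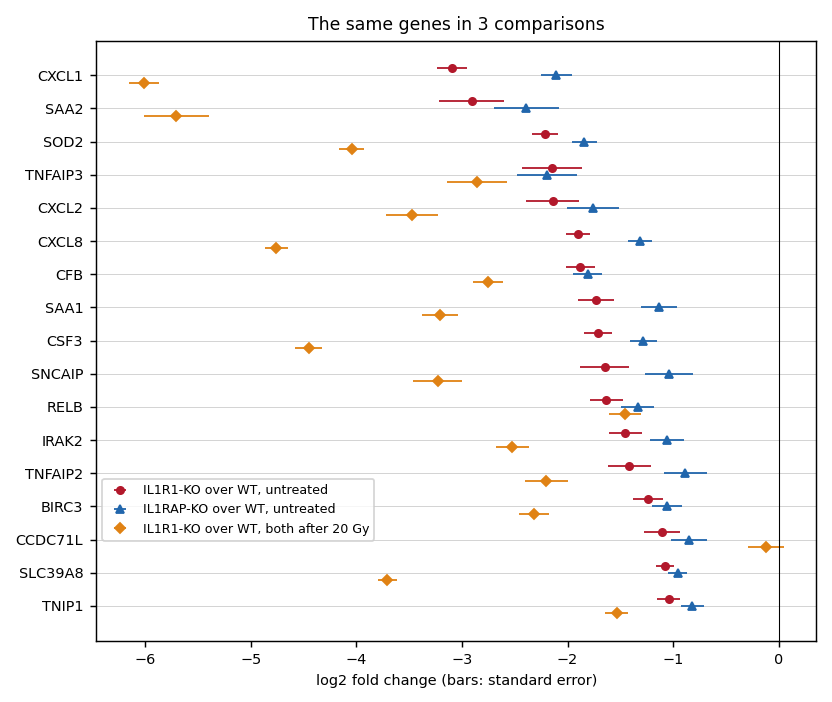
Log2 fold change with its standard error for the 17 protein-coding genes called lower, in untreated IL1R1-KO over WT (circles), untreated IL1RAP-KO over WT (triangles) and irradiated IL1R1-KO over WT (diamonds). Diamonds lie left of circles in 15 of 17 genes, by 2.92 for CXCL1.

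Untreated IL1RAP-KO cells, which lack the other chain of the receptor, were set beside IL1R1-KO cells. Each was compared with the same WT libraries, so only the values are given side by side. CXCL1 was at 2.70 and 2.94 scaled TPM in IL1R1-KO libraries and 7.09 and 6.07 in IL1RAP-KO libraries, and SAA1 was at 90.01 and 138 in IL1R1-KO libraries and 167 and 172 in IL1RAP-KO libraries. The median log2 fold change of the 17 protein-coding genes, which were chosen in IL1R1-KO cells, was -1.71 in IL1R1-KO and -1.28 in IL1RAP-KO. In the direct test of IL1R1-KO against IL1RAP-KO, none of the 18 lower genes differed at an adjusted p under 0.05 by limma, and 8 had an unadjusted p under 0.05, all lower in IL1R1-KO, beside 1.81% of all genes. The 18 were chosen for low values in the same IL1R1-KO libraries, so the 8 are a description. The difference was -0.99 for CXCL1, with an adjusted p of 0.119 by limma, and -0.37 for SOD2. Of the 3 higher pseudogenes, AC004975.1 and AC245100.3 were listed at 0 in both IL1RAP-KO libraries and AC107918.4 was at 0.103 and 0.112. Genes called without IL1R1-KO replicate 2 were chosen in replicate 1 alone, which the direct test then also used. Their difference from IL1RAP-KO is therefore a description too.

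Genes of most other programmes were not called. Of 42 lists with 779 measured genes, 36 held no called gene. Over all genes 0.118% were called lower and 0.0196% higher, and at those shares most lists of such sizes would hold none. The 44 measured genes of the type I interferon response had a median of -0.08, the 41 p53 target genes -0.06, the 47 genes of mitosis -0.01 and the 50 of DNA replication -0.03, and the 38 cytosolic ribosomal protein genes 0.01. The lists without a call that lay lowest were the 15 antimicrobial genes at -0.26 (-0.39 to -0.14 with each library left out in turn), the 3 guanylate-binding proteins at -0.24 (-0.46 to -0.01), the 6 metallothioneins at -0.24 (-0.36 to -0.15) and the 15 TNF ligands and receptors at -0.23 (-0.30 to -0.13), and the 9 small structural RNAs lay highest at 0.67 (0.15 to 0.84). The 19 measured genes of MHC class I antigen presentation had a median of -0.22 (-0.27 to -0.18), with 14 whose IL1R1-KO libraries were both below both WT libraries (17.4% over all genes), 1 with both above (19.5%), 6 lower at an unadjusted p under 0.05 (2.84%) and 0 called. PSMB9, a subunit of the immunoproteasome, had the most negative difference among them, at 1.42 and 1.97 scaled TPM in IL1R1-KO libraries, against 4.91 and 3.97 in WT libraries (log2 fold change -1.02, adjusted p of 0.263 by limma). The 21 measured basal epithelial genes gave no call and a median of -0.05. Of them 6 had both IL1R1-KO libraries below both WT libraries and 5 had them above. Among these genes 1 passed the adjusted p, lower but with a fold change under 2. KRT5, a keratin of basal cells, was at 2856 and 2392 scaled TPM in IL1R1-KO libraries, against 2364 and 2286 in WT libraries. Among the antimicrobial proteins S100A8 was at 703 and 535 in IL1R1-KO libraries, against 1174 and 1131 in WT libraries (log2 fold change -0.91, adjusted p of 0.167 by limma), and S100A9, its partner in calprotectin, at 1588 and 1191, against 2049 and 2224 (-0.63, adjusted p of 0.370). In both, the groups did not overlap but did not pass the test. LTF, the iron-binding lactoferrin, was at 0.0860 and 0.252 in IL1R1-KO libraries, against 3.33 and 2.10 in WT libraries, a log2 fold change of -1.65 with an adjusted p of 0.116 by limma, and was called lower with a pseudocount of 0.1 or 0.5 in place of 1.

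The IL1R1-KO replicates parted over genes of the oxidative stress regulator NRF2. All 24 measured NRF2 targets were higher in IL1R1-KO replicate 1 than in replicate 2, beside 16 of the 31 NF-kB subunit and inhibitor genes. The share over all genes was not counted. Against the mean of the WT libraries, the median difference on the log2 scale was 0.73 in replicate 1 and 0.04 in replicate 2. FTL, the light chain of ferritin, which stores iron, was at 1782 and 450 scaled TPM in IL1R1-KO replicates 1 and 2, against 437 and 432 in WT libraries, and NQO1, a quinone reductase, at 756 and 281, against 262 and 271. None of the 24 was called by limma, and 5 were higher at an unadjusted p under 0.05, beside 2.43% of all genes. Without IL1R1-KO replicate 2, 6 of the 24 were called higher, beside 0.118% of all genes in that fit (NQO1, AKR1C1, AKR1C2, AKR1C3, FTL and ABCC2), and without replicate 1 none was, where the list's median log2 fold change was 0.04 rather than 0.35. These genes were looked at after their values were seen. The NF-kB list did not divide in this way: its median difference from WT was -0.30 in replicate 1 and -0.26 in replicate 2. The labels do not give the guide or culture of each replicate, and what sets the replicates apart was not tested.

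**Figure D5:**
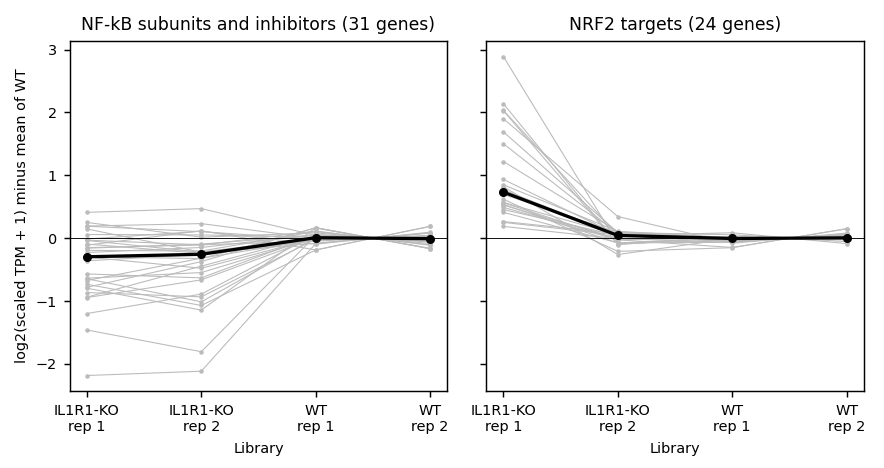
Level of each gene of 2 lists in the 4 untreated libraries, as log2(scaled TPM + 1) minus the mean of the 2 WT libraries; grey lines are genes and the black line their median. The 31 NF-kB genes have medians of -0.30 and -0.26 in IL1R1-KO replicates 1 and 2, whereas the 24 NRF2 targets have medians of 0.73 and 0.04.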

How the data were processed

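Stranded libraries were made from rRNA-depleted total RNA of MCF10A cells and sequenced as paired ends. Per the labels and the study's methods, cutadapt 1.15 trimmed the reads, STAR 2.5.3a placed them on GRCh38 and HTSeq counted them by gene, and the authors deposited TPM for 60675 genes. The single-library tables equal the columns of the joint table. Since the deposited values are TPM, depth is unknown, no counting interval is given, and a count model was not used.

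TPM were divided by unweighted trimmed-mean factors (30% of log ratios and 5% of mean levels trimmed at each end) and put on the scale of log2(scaled TPM + 1), which understates the change of low genes. Genes with TPM of at least 1 in at least 2 of 12 libraries were tested with limma 3.58.1 (R 4.3.3, variance trend, 6 group means, 6 residual and 3.73 prior degrees of freedom). Calls required more than a 2-fold difference at an adjusted p under 0.05. Positions came from GENCODE v44, which held 60419 of the IDs. SOD2's ID was not among them, so SOD2 has no position here. Named genes were all called genes, those with an adjusted p alone, IL-1 and NF-kB components, and the most abundant members of 42 lists. AKR1C1, AKR1C2, AKR1C3, ABCC2, CFI, LTF, PSMB9, INPP5F, RN7SL2, CD14, DCN and KRT14 were named after their values were seen. The members and lists were chosen with earlier results of these data known. The script was tested on simulated data. Alternatives were other scalings, pseudocounts of 0.1 and 0.5, other filters, subsets of libraries, a replicate block, no variance trend, other thresholds and each library left out.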

Additional observations from a re-analysis of the deposited data

Results flagged for a closer look

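The effect of the IL1R1-KO label differed between irradiated and untreated cells for 11 of the 17 protein-coding genes called lower. The interaction test of limma was used at an adjusted p under 0.05, which 2.81% of all genes tested passed in either direction. With the 4 pseudogenes the number was 15 of the 21 genes called. The differences are irradiated minus untreated contrast on the scale of log2(scaled TPM + 1), which understates the change of low genes. Among the genes called in each fit, 11 passed with a pseudocount of 0.1, 13 with 0.5 and 11 with TPM as deposited. The protein-coding genes had a more negative contrast after irradiation: CXCL1 by -2.92, CXCL8 by -2.86, SAA2 by -2.80, CSF3 by -2.74, SLC39A8 by -2.63, SOD2 by -1.83, SNCAIP by -1.58, SAA1 by -1.48, BIRC3 by -1.08, IRAK2 by -1.07 and CFB by -0.87. CXCL1, at an untreated contrast of -3.09 and an irradiated one of -6.01, had the largest of these 11, and CFB the smallest, with an adjusted p of 0.0481 by limma. The 4 pseudogenes passed as well, but they were listed at 0 in a group or reached 1 TPM in a single group, so the filter and the choice of genes fix their difference and no value is given. With WT replicate 1 or WT replicate 2 left out, 8 called genes passed this test, with IL1R1-KO replicate 1 left out 13, and with IL1R1-KO replicate 2 left out 36.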

How the results depend on the processing

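The direction of the lower genes that could be tested held in each of the 17 alternatives, and 4 of the 21 called genes (CXCL1, SOD2, CXCL8 and SLC39A8) kept their call in each of them. AC004975.1 kept its call in the 15 that could test it, but it passed the filter only through the IL1R1-KO libraries. The alternatives that left out an IL1R1-KO library could not test it, so this does not show that its call is robust. Leaving out a library gave 2 to 18 higher and 8 to 39 lower genes, 7 to 23 genes lower in both untreated and irradiated comparisons, 0 to 1 higher in both, 8 to 36 with an interaction, and 2 to 27 that differed between IL1R1-KO and IL1RAP-KO. Genes called in each of those fits were chosen in the same IL1R1-KO libraries that the test against IL1RAP-KO used, so the last count is a description. The 4 compared libraries alone gave 1 higher and 6 lower genes, a fit with 2 residual degrees of freedom. A pseudocount of 0.1 and the 6 untreated libraries alone each gave 1 gene that differed between IL1R1-KO and IL1RAP-KO, beside 3, the higher pseudogenes. Over the other alternatives the number of lower genes was 14 without a filter on low values to 25 with the adjusted p alone or a lower fold limit. IL1R1 mRNA ran over log2 fold changes of -0.33 to 0.12. Scaling moved the median of all genes to at most -0.01. Replicate numbers did not pair the libraries (correlations of deviations -0.06 to 0.09 over 15 pairs of groups), and the replicate block gave 3 higher and 15 lower genes, all 15 among the 18. Lists counted without each library were chosen after seeing the data. Read depth is unknown, which limits what the low genes such as IRAK2 and SNCAIP can show.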
